A study of Homo sapiens with 2 samples.

Results

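Among tumour cells from samples with low levels of NF-kB target transcripts, the 10% with the highest levels of 4 such transcripts were chosen, and those cells are described here. They came from OVCAR5, a human ovarian carcinoma line, grown as tumours in NSG-b2m-/- mice, digested to single cells and treated with cytokines outside the animal for 6 h. All cells carried a reporter that senses IFN-gamma and had been sorted as CFP+, the bystander state of that reporter, from a pool of 5 tumours. The labels list 15 treated cultures, with 5 each left unstimulated, given TNF-alpha alone at 10 ng/ml, or given the same dose together with IFN-gamma at 100 ng/ml. Each cell bore a pair of antibody hashtags, and 15 such pairs (hashed samples) were found, but no label ties a hashtag to a treatment or to a tumour.

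The members were chosen by measured values. In 5 hashed samples (HTO2+HTO5, HTO2+HTO8, HTO3+HTO7, HTO4+HTO7 and HTO4+HTO10) with low levels of NF-kB targets, the 10% of cells with the highest summed counts of NFKBIA, CXCL8, CXCL1 and CCL20 per 10000 UMIs (unique molecules counted) were taken. This gave 89 members of 892 cells in these samples and of 2928 kept cells with a clear hashtag pair in all. The other 803 cells of the 5 hashed samples served for comparison. The members numbered 26, 13, 11, 13 and 26 in the 5 hashed samples in the order above, or 8.87% to 16.7% of each sample's cells. "Unstimulated-like" is only a working name for the 5 samples, since their treatment is not known from the labels.

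NF-kB is a family of transcription factors held in the cytoplasm by inhibitors of the IkB type. Signals such as TNF-alpha destroy the inhibitor, and the freed factor enters the nucleus and turns on chemokines, survival genes and its own inhibitors. NFKBIA encodes IkB-alpha, the first of those inhibitors to be made again, CXCL8 and CXCL1 encode chemokines that attract neutrophils, and CCL20 encodes a chemokine that attracts CCR6-bearing lymphocytes and dendritic cells. In ovarian carcinoma cells the pathway is known as a source of inflammatory chemokines.

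The DNA just before the start of these genes is shown because NF-kB binds a short sequence of the kB type there. RefSeq promoters of GRCh38.p14 were searched, on both strands, over the 250 bases before each start for GGAANNNCC, a loose form of that sequence that also covers part of other motifs. The windows below hold the match nearest the start of the 4 genes of the rule and of 4 further genes that the results turn on, written 5′ to 3′ along the gene's strand, with every match inside the window in capitals. They lie at chr14:35404797-35404855 on the minus strand for NFKBIA, at chr4:73740453-73740511 for CXCL8, at chr4:73869315-73869373 for CXCL1, at chr2:227813738-227813796 for CCL20, at chr4:74038709-74038767 on the minus strand for CXCL3, at chr6:137867179-137867237 for TNFAIP3, at chr11:102317260-102317318 for BIRC3 and at chr19:10270909-10270967 for ICAM1.
NFKBIA: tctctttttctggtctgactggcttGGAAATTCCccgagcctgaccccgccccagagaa
CXCL8: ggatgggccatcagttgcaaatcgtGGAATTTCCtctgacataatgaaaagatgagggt
CXCL1: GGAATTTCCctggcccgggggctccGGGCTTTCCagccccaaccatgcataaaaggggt
CCL20: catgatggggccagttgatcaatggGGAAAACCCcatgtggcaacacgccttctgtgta
CXCL3: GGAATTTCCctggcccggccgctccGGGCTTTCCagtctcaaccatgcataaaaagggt
TNFAIP3: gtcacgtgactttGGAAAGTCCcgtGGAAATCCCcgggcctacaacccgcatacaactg
BIRC3: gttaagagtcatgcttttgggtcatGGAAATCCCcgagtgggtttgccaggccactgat
ICAM1: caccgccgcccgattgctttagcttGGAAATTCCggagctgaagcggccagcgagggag
Of all promoters in the table, 17.1% held the sequence, and of the tested genes with a promoter entry, 26.1% did (2069 of 7919). Of the 62 genes that were higher in members, described below, 47 had an entry and 21 of these (44.7%) held it. The 4 further genes were picked after their values were seen. A match is a run of letters and not a measured binding site.

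The values that chose the members are given as a description. The score reached 202 UMIs per 10000 in members, with a median of 6.32, against a median of 0.785 in the other cells, of which 305 had no count of the 4 genes. The lowest member had 4 counts among 9998 UMIs, and the highest cell left out, at 3.94, had 3 counts among 7609 UMIs, so the border was a matter of single molecules. In the 10 other hashed samples the median score was 21.3 to 30.2, above the upper quartile of the members, 9.52. NFKBIA led in 63 members, CXCL8 in 16, CCL20 in 4 and CXCL1 in 3, with ties in 3. Both NFKBIA and a chemokine were seen in 58 members, NFKBIA without any of the 3 chemokines in 26, and a chemokine without NFKBIA in 5. The highest member, from HTO4+HTO10, held 106 of the 368 CXCL8 counts of all members (28.8%). Members and other cells had a median of 11683 and 11967 UMIs.

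In summed counts NFKBIA and CXCL8 also went together when either was left out of the choice, and CXCL1 and CCL20 less evenly. These are genes of the rule in the same cells, so the values are a description without p-values and not independent support for the choice. When the highest 10% were chosen by NFKBIA alone, CXCL8 stood at 0.402, 0.473, 6.78, 2.26 and 4.65 UMIs per 10000 in the chosen cells and at 0.146, 0.363, 0.582, 0.199 and 0.146 in the rest, in the order of hashed samples above. CXCL8 was therefore higher in 5 of 5 samples, but the step was small in HTO2+HTO8, and the level in chosen cells was lowest in HTO2+HTO5. The log2 fold change was 3.13 ± 0.20 (SE, from an edgeR quasi-likelihood fit), and 1 cell held 37.5% of the chosen cells' counts. CXCL1 was higher in 4 of 5 samples, at 3.33 ± 0.41. CCL20 was higher in 2 of 5 samples only, at 1.80 ± 0.40, and had no count in the chosen cells of HTO2+HTO8 and HTO4+HTO7. When cells were chosen by CXCL8, CXCL1 and CCL20, NFKBIA stood at 1.99, 1.79, 3.34, 3.23 and 7.30 against 1.23, 1.04, 0.878, 1.04 and 0.935. The groups did not overlap, and the log2 fold change was 1.74 ± 0.16. The choices overlapped only in part: 25 cells were among the 89 chosen by each. The Spearman correlation of NFKBIA and CXCL8 levels was -0.0953 across the 89 members and -0.0642 across the 803 other cells. Both values describe cells that share libraries and were split on a sum that holds both genes.

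Counts were summed per hashed sample and class, and members were compared with other cells by edgeR with the hashed sample as block, after leaving out the 4 genes of the rule. Of 9955 genes tested, 62 were higher in members (0.623%) and 15 were lower (0.151%) at an adjusted p under 0.05. DESeq2 called 30 higher and 2 lower, all among the same genes. The levels of the 5 hashed samples did not overlap between classes for 10 of the 62 higher genes and for 6 of the 15 lower genes, beside 0.532% of all genes with members above (53 genes) and 1.39% with members below (138 genes). Of the 62 genes, 29 were higher in all 5 hashed samples, and in 20 a single cell held at least 25% of the members' counts. The count of higher genes fell to 34 without HTO4+HTO10, and, in fits added after seeing the data, to 33 without the 9 highest-scoring members, to 23 without cells in which an extra hashtag, the next after the pair, held at least 5% of hashtag counts, and to 17 when no cell could give more than 3 counts to a gene. Such a cap also flattens genes with many counts per cell. The count of lower genes was 4 without HTO2+HTO5, 6 without HTO3+HTO7 and 2 without HTO4+HTO10. Under the 21 other settings tried, 5 genes (BIRC3, ATF3, PPP1R15A, SOD2 and JUN) were higher in every one, and CXCL3 and TNFAIP3 in every one of the 20 that tested them. These 7 were singled out after their values were seen.

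**Figure D1:**
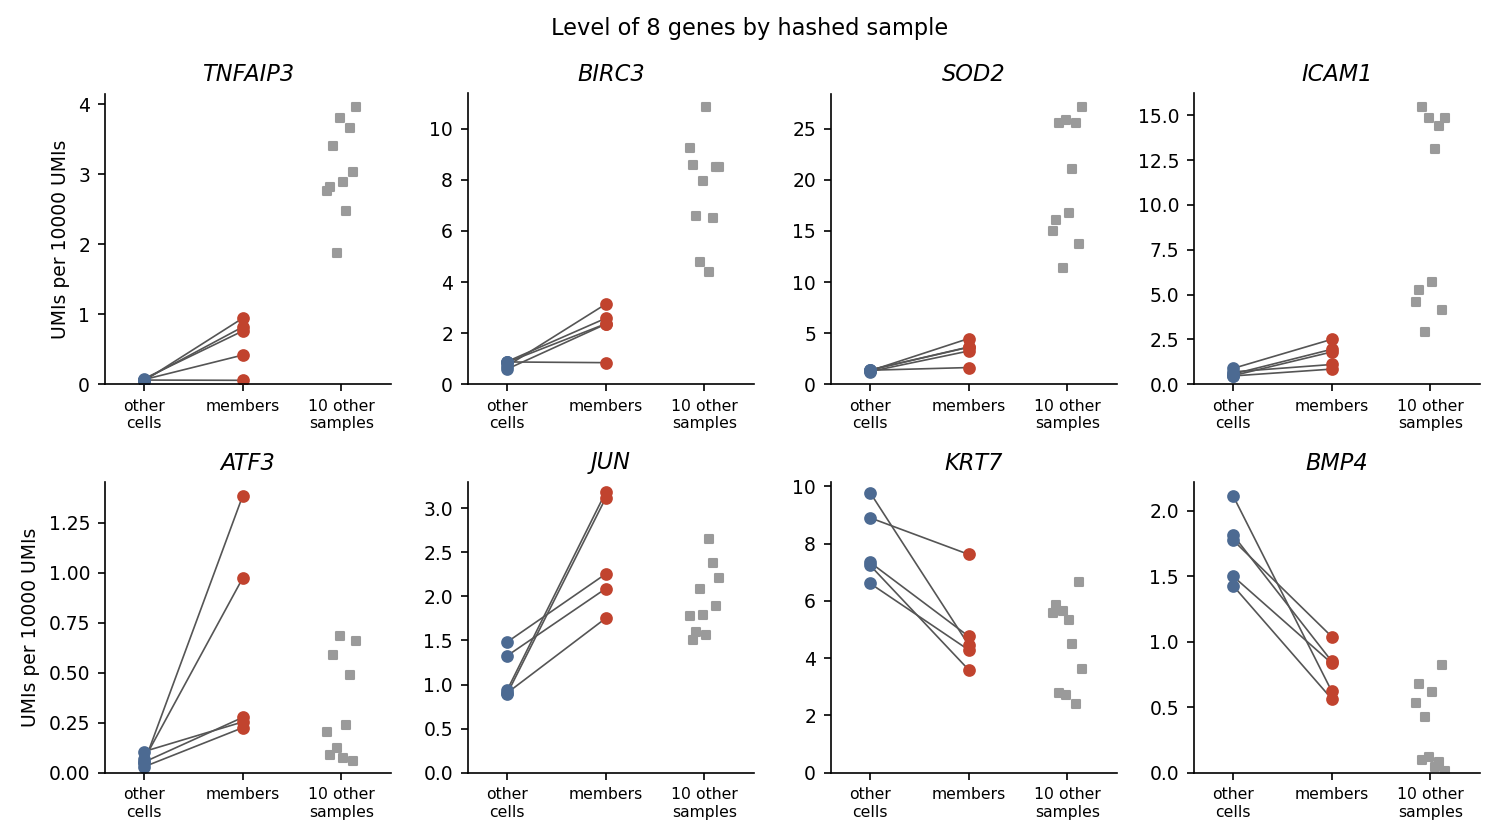
Level of 8 genes, in UMIs per 10000 UMIs, in the other cells (blue) and the members (red) of the 5 hashed samples, with lines joining the same sample, and in the 10 other hashed samples (grey squares, 1 per sample). Members exceeded other cells for SOD2, ICAM1, ATF3 and JUN in all 5 samples and fell below them for KRT7 and BMP4, while HTO2+HTO8 showed no step for TNFAIP3 and BIRC3.

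Further NF-kB targets were higher in members. Over 6 lists with 84 NF-kB genes outside the rule, 61 were tested, 14 were higher and none was lower by edgeR. None of the 61 was lower at an unadjusted p under 0.05, and DESeq2 called 9 higher and 0 lower. The median log2 fold change was 0.52, beside -0.03 over all genes tested, and 54 of the 61 lay above 0. These lists were set with earlier results on these cells known, so their direction is not independent evidence. Without cells with an extra hashtag of at least 5%, 6 of the 61 were higher, and with counts capped at 3 per cell 8 were.

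The list of feedback inhibitors had 3 of 12 tested genes higher. TNFAIP3, which encodes the ubiquitin-editing enzyme A20, stood at 0.820, 0.0564, 0.418, 0.762 and 0.945 UMIs per 10000 in members and at 0.0661, 0.0603, 0.0670, 0.0801 and 0.05 in other cells. Members of HTO2+HTO8 were thus at the level of their neighbours, and those of the other 4 samples stood above the level of other cells in every sample. The log2 fold change was 3.34 ± 0.33 (edgeR adjusted p = 1.16e-13), and 27 of 89 members had a count. TNIP1, an A20-binding inhibitor, rose by 0.85 ± 0.16 and TNFAIP2, another TNF-induced gene, by 0.79 ± 0.14 on the log2 scale (edgeR adjusted p = 1.17e-04 and 9.43e-05).

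Of 3 tested chemokines and of 12 tested surface genes, 1 each was called. The chemokines CCL2 and CXCL16 did not pass (edgeR adjusted p = 0.274 and 0.928). CXCL3, a neutrophil-attracting relative of CXCL1, stood at 0.424, 0.0564, 1.46, 0.485 and 1.10 in members and at 0.0259, 0.0723, 0.0536, 0.0601 and 0.0167 in other cells, with HTO2+HTO8 again the exception. Its log2 fold change was 3.97 ± 0.37 (edgeR adjusted p = 1.99e-14), and 1 cell held 41.8% of the members' counts. ICAM1, an adhesion molecule bound by leukocyte integrins, stood at 1.95, 0.846, 2.51, 1.80 and 1.10 in members against 0.569, 0.464, 0.884, 0.481 and 0.693 in other cells. It was higher in 5 of 5 samples by 1.36 ± 0.18 (edgeR adjusted p = 1.06e-08), but 43.6% of its counts were in the 10 members with an extra hashtag of at least 5%, and without such cells the adjusted p was 0.122. TNFRSF12A, the receptor with the highest level of the surface list, was at 10.6 in both classes, and the log2 fold change was -0.03 ± 0.09.

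Survival genes held the most calls, 5 of 12. SOD2, the mitochondrial superoxide dismutase, stood at 3.65, 1.64, 3.62, 3.26 and 4.47 in members and at 1.41, 1.37, 1.39, 1.25 and 1.32 in other cells, so the groups did not overlap. The log2 fold change was 1.30 ± 0.14 (edgeR adjusted p = 2.66e-12), and the call was kept in all 21 other settings. Part of the SOD2 counts lay in members with an extra hashtag of at least 5%. In HTO2+HTO5, 4 such members held 52, 8, 14 and 1 counts, and in HTO4+HTO7 another 4 held 13, 9, 10 and 1. Whether the groups stay apart without these cells was not tested. BIRC3, which encodes the caspase and ubiquitin regulator cIAP2, stood at 3.14, 0.846, 2.37, 2.36 and 2.58 against 0.715, 0.874, 0.857, 0.594 and 0.889, with no step in HTO2+HTO8. Its log2 fold change was 1.54 ± 0.17 (edgeR adjusted p = 7.35e-12). GADD45A, a growth arrest gene, rose by 2.12 ± 0.23, but its level of 4.07 in HTO4+HTO10 stood far above 0.627 to 1.41 in the other samples, 1 cell held 48.7% of the counts, and DESeq2 gave an adjusted p of 0.287. Its place among NF-kB survival genes was a choice made for the list and was not tested. CFLAR, an inhibitor of caspase-8, and IER3 were also called, at 0.76 ± 0.18 and 0.45 ± 0.12, but each kept the call in 6 of 21 other settings, with IER3 as low as 0.02.

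Of the subunits and kinases, 3 of 14 were higher. NFKB1, the precursor of the p50 subunit, rose by 1.39 ± 0.22 on the log2 scale (edgeR adjusted p = 3.02e-06), RIPK2, a kinase downstream of NOD receptors, by 1.02 ± 0.24 and RELB, a subunit of the alternative pathway, by 0.94 ± 0.25. The call was kept in 20 of 21 other settings for NFKB1, in 11 for RIPK2 and in 6 for RELB. RELA, the p65 subunit, was at 0.678 in members and 0.534 in other cells, which did not pass (edgeR adjusted p = 0.874). Of the cytokines, IL32 rose by 0.90 ± 0.20 with 1 call in 8, kept in 9 of 21 other settings. IL6, CSF3, TNF, LTA, TSLP and IL36G had no count in any member.

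**Figure D2:**
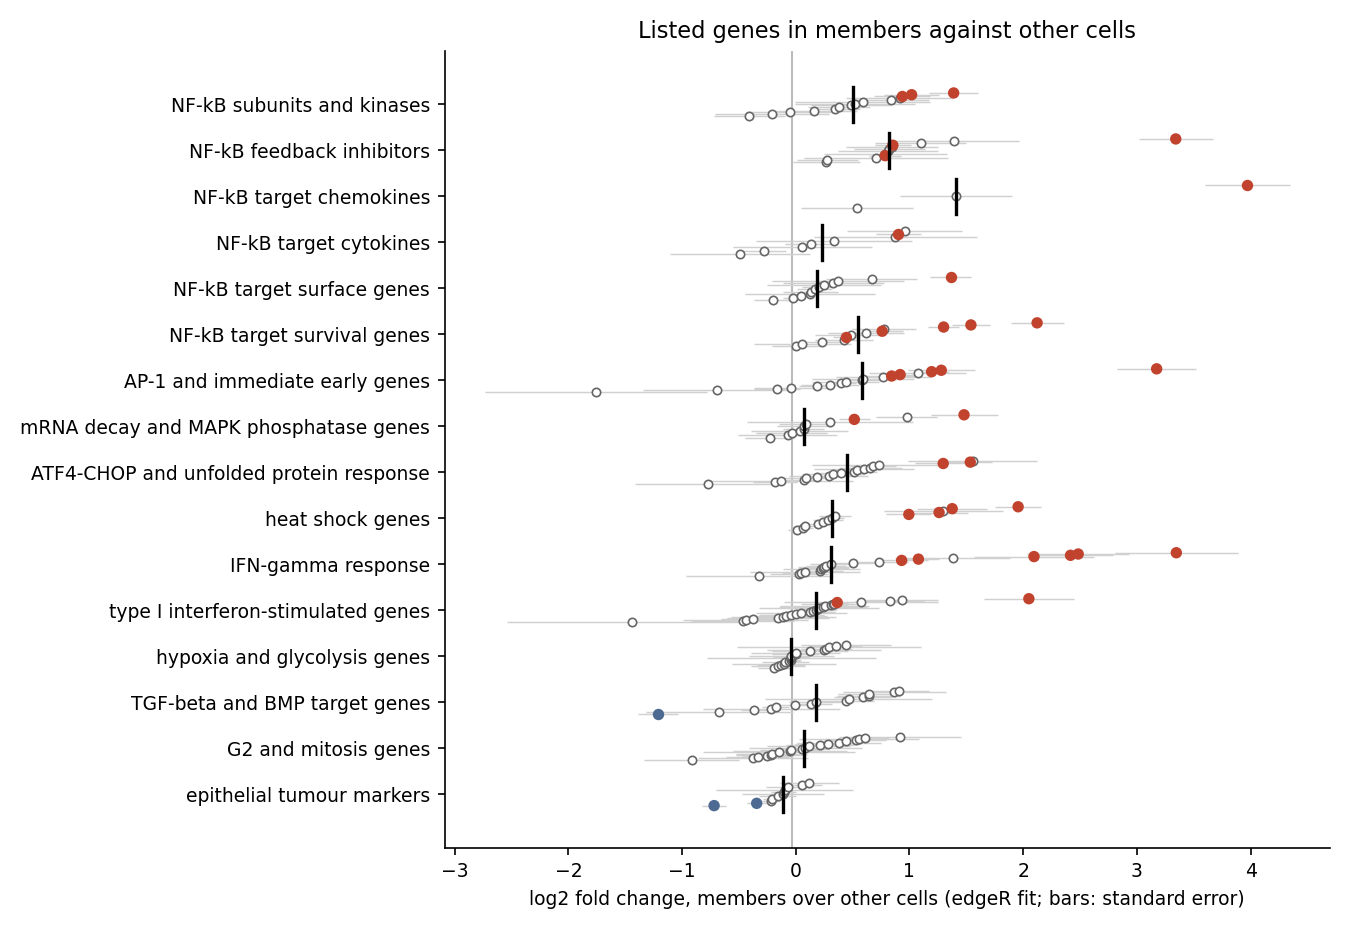
Log2 fold change of each tested gene of 16 lists, members over other cells, with its standard error. Filled red and blue points passed an adjusted p of 0.05 as higher and lower, open points did not, black bars are list medians and the grey line is the median of all genes at -0.03.

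Genes of the list of AP-1 and immediate early genes were higher as well. AP-1 is a factor built from JUN, FOS and ATF proteins that answers stress and growth signals, and the list also holds genes outside AP-1, such as KLF6. Of 17 tested genes of the list, 5 were called. ATF3, a stress-induced AP-1 gene, stood at 0.254, 0.226, 0.975, 0.277 and 1.39 in members and at 0.106, 0.0301, 0.0670, 0.0534 and 0.05 in other cells, without overlap. The log2 fold change was 3.17 ± 0.35 (edgeR adjusted p = 1.24e-11), yet only 13 members had a count. Of the members' ATF3 counts, 37.3% were in 1 cell of HTO4+HTO10. JUN stood at 1.75, 2.26, 2.09, 3.12 and 3.18 against 0.905, 1.48, 1.33, 0.895 and 0.936, again without overlap, at 1.20 ± 0.15 (edgeR adjusted p = 3.00e-09). It was seen in 63 members. MAFF, KLF6 and JUNB were the other calls, at 1.28 ± 0.30, 0.92 ± 0.18 and 0.84 ± 0.23, kept in 11, 16 and 4 of 21 other settings. FOSL1, the AP-1 gene of the highest level, was at 2.87 and 2.07, which did not pass (edgeR adjusted p = 0.174). HBEGF, a ligand of the EGF receptor, was the 1 call among 6 genes of EGF ligands and the urokinase pathway, at 1.14 ± 0.23. DUSP1, a phosphatase that switches off MAP kinases, was higher by 1.48 ± 0.29.

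Stress genes were called in both lists. PPP1R15A, which restores translation after the integrated stress response, stood at 1.07, 0.620, 3.48, 1.52 and 1.01 in members against 0.348, 0.609, 0.790, 0.561 and 0.256. It was higher by 1.54 ± 0.20 (edgeR adjusted p = 3.54e-09), with hardly a step in HTO2+HTO8. DNAJB9, a chaperone of the endoplasmic reticulum, was the other call among 18 genes, at 1.30 ± 0.25. HSPA5, HERPUD1 and ATF4 did not pass, at 10.3, 1.54 and 1.48 in members against 8.16, 0.971 and 1.37. Of 13 heat shock genes 4 were higher, namely HSPA1A, HSPA1B, BAG3 and DNAJB1. HSPA1A, the inducible HSP70, stood at 0.565, 3.21, 7.73, 1.45 and 2.49 against 0.807, 0.458, 0.643, 0.507 and 0.643, so it was lower in members of HTO2+HTO5. Its log2 fold change of 1.96 ± 0.21 (edgeR adjusted p = 2.66e-12) rested on few cells: 4 members with at least 20 counts held 74.7% of the counts, and with counts capped at 3 per cell the value was 0.20 (adjusted p = 0.997). None of the 13 heat shock genes was higher by edgeR under that cap. The summed list had a median of 70.1 per cell in members and 74.9 in other cells, and of 64.7 in the 44 members of highest score, although its level over pooled counts was 92.5 and 79.9. HSPA1A was seen in 36.0% of members and in 42.7% of other cells. The constitutive HSP90AB1 was at 21.9 and 21.1.

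Interferon genes were called, in large part from counts of a pair of cells. Of 19 genes of the IFN-gamma response, 6 were higher (CXCL11, CXCL10, IDO1, GBP4, IRF1 and GBP1), and of 25 type I interferon-stimulated genes, IFIT2 and ISG15. CXCL10, a chemokine for activated T cells, stood at 4.69, 0.0564, 0.0696, 0.346 and 0.221 in members and at 0.135, 0.139, 0.174, 0.140 and 0.233 in other cells, so it was high in HTO2+HTO5 members alone. There, 2 cells held 108 and 56 of the 180 CXCL10 counts, and together 91.1% of CXCL10, 93.5% of CXCL11 and 90.3% of GBP4 counts, and 69 of 75 IDO1 counts. Their share was lower for IFIT2 (62.2%, all in 1 of the 2 cells), GBP1 (51.0%) and IRF1 (34.6%). Without them CXCL10 was at 0.145 in the 87 other members and 0.168 in the other cells, while IRF1 was at 1.39 and 0.872. HTO7 was the extra hashtag of both cells, with 11.1% and 10.7% of their hashtag counts, and the hashed sample HTO2+HTO7 had a CXCL10 level of 96.6. The part of such hashtags in the result was not tested. In the fit without cells with an extra hashtag of at least 5%, none of the 6 IFN-gamma genes passed, and CXCL10 was at -0.37 (edgeR adjusted p = 0.994, DESeq2 0.998 with all cells). IRF1, a transcription factor induced by both IFN-gamma and NF-kB, was higher in 5 of 5 samples at 1.08 ± 0.18, and at 0.65 (edgeR adjusted p = 0.119) in that fit.

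**Figure D3:**
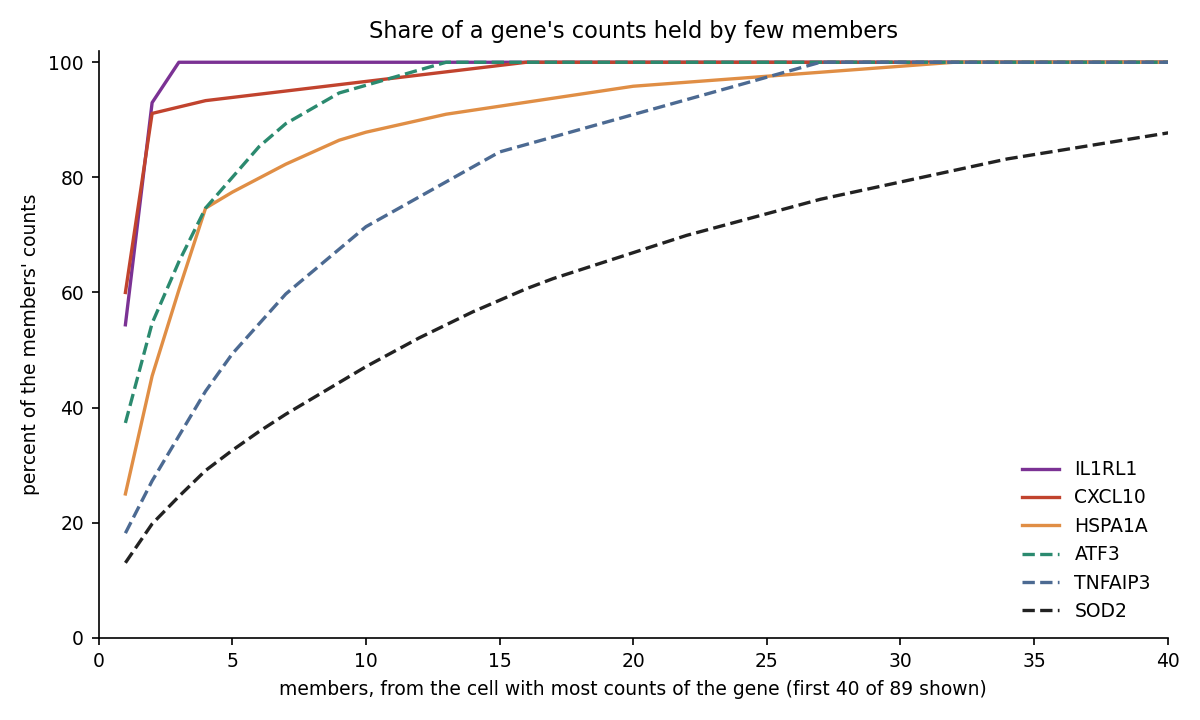
Share of the members' counts of a gene (vertical axis, percent) held by the cells with most counts (horizontal axis, number of cells). For IL1RL1 and CXCL10 the first 2 cells held 93.0% and 91.1%, and for HSPA1A the first 4 held 74.7%, while SOD2 counts were spread over 69 members.

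Other genes were concentrated likewise. IL1RL1, the receptor of IL-33, had the largest fitted value of all, 4.10 ± 0.46, but was seen in 3 members, of which 2 held 93.0% of its 57 counts, and DESeq2 gave an adjusted p of 0.524. HMOX1, the haem-degrading oxygenase, was at 4.0 and 6.41 in members of HTO2+HTO8 and HTO3+HTO7 and at 0.208 to 0.819 in the other 3 samples. Of G0S2, a regulator of fat breakdown, 50.6% of the counts lay in members with an extra hashtag of at least 5%. These 3 genes were named after their values were seen. ARL14, AMOTL2, RGCC, PNRC1, NNMT and IRS2 completed the 15 genes with the largest increase among those higher in every sample, with log2 fold changes of 1.08 to 1.78.

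KRT7 and BMP4 were the lower genes called by both edgeR and DESeq2. KRT7, a keratin of simple epithelia, stood at 3.59, 4.28, 4.46, 7.62 and 4.76 in members and at 7.24, 6.61, 9.78, 8.90 and 7.34 in other cells, lower in 5 of 5 samples by 0.72 ± 0.10 on the log2 scale (edgeR adjusted p = 2.45e-07). With counts capped at 3 per cell the KRT7 value was -0.18 (edgeR adjusted p = 0.939). At these levels many cells of both classes hold more than 3 counts. The cap flattens such a gene and cannot tell whether its fall rested on few cells. BMP4, a secreted growth factor of the TGF-beta family, stood at 0.622, 0.564, 0.835, 1.04 and 0.851 against 2.11, 1.43, 1.5, 1.78 and 1.81, without overlap. Its log2 fold change was -1.21 ± 0.18 (edgeR adjusted p = 3.85e-07), and it was seen in 40.4% of members and 63.4% of other cells. After thinning every cell to 5000 UMIs the shares were 27.0% and 46.0%. BMP4 was the 1 call among 15 tested genes of the TGF-beta and BMP list, of which 9 lay above 0 with a median log2 fold change of 0.18. ID1 and ID2, targets of BMP signalling, were at 3.94 and 1.17 in members and 4.17 and 1.13 in other cells and did not pass. Among 11 tested epithelial markers, KRT7 and KRT19 were lower by edgeR, and KRT19 kept its call in 5 of 21 other settings. No epithelial marker was higher by edgeR, at an unadjusted p under 0.05 or by DESeq2. KRT18 and KRT8 were at 26.4 and 15.1 in members and 31.4 and 17.7 in other cells and did not pass. NRP2, TPM4, ZNF703, EHBP1, DHX38, TSPAN8, LRRC14 and OTULINL were the other genes lower in all 5 samples, at -0.50 to -3.03, and each kept its call in 3 to 8 of the other settings.

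No gene of the hypoxia, p53, S phase, mitosis and sterol lists passed (0 of 83 by edgeR, 8 at an unadjusted p under 0.05, 0 by DESeq2). The growth arrest gene GADD45A was counted with the NF-kB survival genes and not here. LDHA was at 8.91 in members and 9.05 in other cells, and TOP2A at 0.704 and 0.826. Among antimicrobial genes only SAA1 of 8 was called, at 0.94 ± 0.24 and in 8 of 21 other settings, while LCN2 was at 13.2 and 14.2.

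The genes were also followed along the score, as a description with no test. The other cells with at least 1 count were split by score into 3 parts of 166 cells, and the members into a lower part of 45 and an upper part of 44. SOD2 was between 1.30 and 1.55 in the other cells and reached 2.27 and 4.88 in the lower and upper part of the members. BIRC3 was at 0.632, 0.679, 1.02 and 0.919 in other cells in order of score and reached 2.02 and 2.88. TNFAIP3 went up through the other cells, at 0.0257, 0.0543, 0.0771 and 0.118, and was at 0.286 and 1.11 in the members. ATF3 was at 0.0400, 0.0194, 0.154 and 0.0805, then at 0.353 and 0.998. ICAM1 was at 0.520 to 0.725 in other cells and at 0.924 and 2.33 in the members. KRT7 was between 7.44 and 8.06 in other cells and at 4.82 and 4.45 in the members. BMP4 was at 1.58 to 1.91, then at 0.924 and 0.573. The list of 84 NF-kB genes as a whole had cell medians of 33.6, 35.2, 36.8 and 37.6 in other cells and of 37.2 and 53.1 in the members, so its lower part of members was no higher than the other cells next to it.

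**Figure D4:**
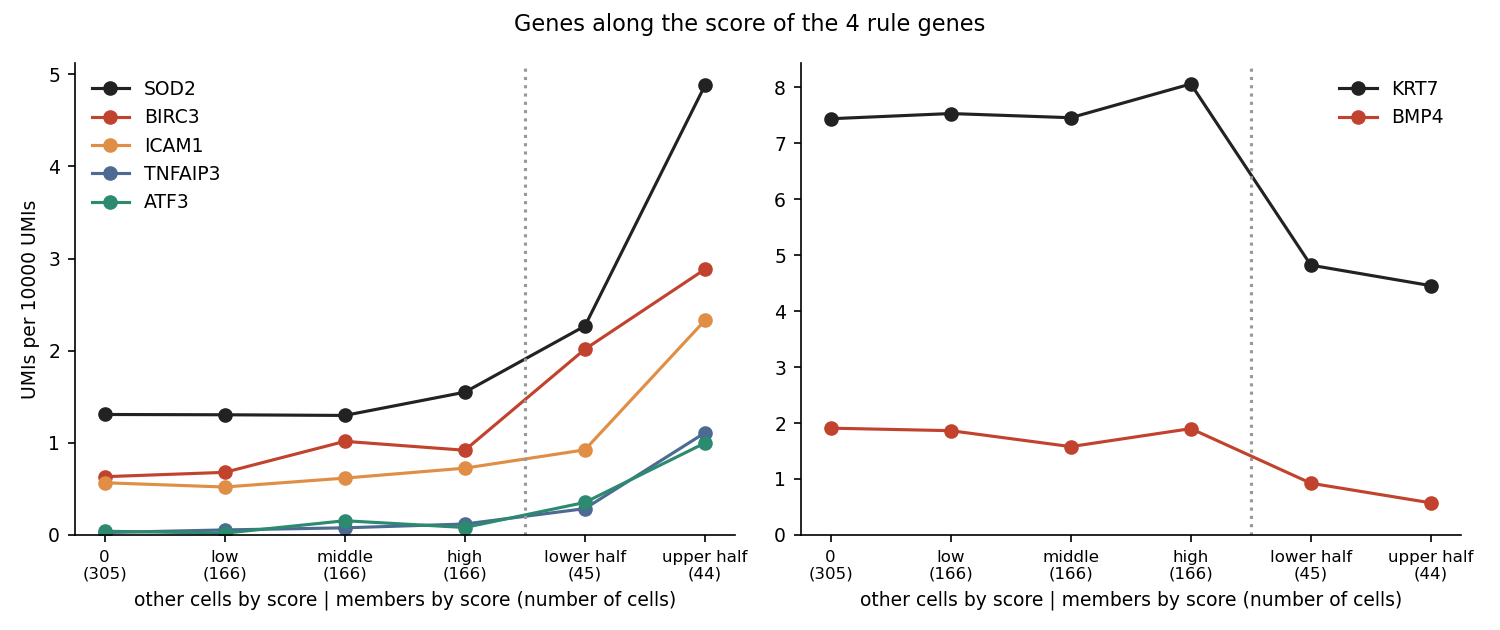
Level in UMIs per 10000 UMIs of 5 genes higher (left) and 2 genes lower in members (right) along the score of the 4 rule genes, in other cells with no count and in 3 parts of the rest, then in the lower and upper part of the members. The dotted line marks the border of the members, where SOD2 goes from 1.55 to 2.27 and KRT7 from 8.06 to 4.82.

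Single members differed widely. The summed level of the 84 NF-kB genes had a median of 44.1 UMIs per 10000 in members (quartiles 31.99 and 68.2) and 35.6 in other cells (27.0 and 45.6). Of the members, 26 (29.2%) reached the 95th percentile of other cells, 62.6, so most members lay below that value on these genes. The 10 members with an extra hashtag of at least 5% stood at 39.1, 50.1, 50.8, 68.98, 71.8, 74.99, 82.6, 92.997, 99.7 and 115.03. Most of these 10 thus lay above 62.6, unlike most members. The part of extra hashtags in the high values was not tested. Sample by sample the list was at 53.4, 42.1, 64.7, 52.9 and 56.8 in members and at 34.9, 39.9, 46.3, 40.8 and 35.4 in other cells. Spearman correlations of the NF-kB list with other lists are given as a description of cells that share libraries and depth. In the 89 members they were 0.568 for AP-1 and immediate early genes, 0.385 for unfolded protein, 0.25 for IFN-gamma and 0.100 for heat shock. In the 803 other cells they were 0.375, 0.178, -0.0111 and 0.163 in the same order, and no difference between the classes was tested.

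**Figure D5:**
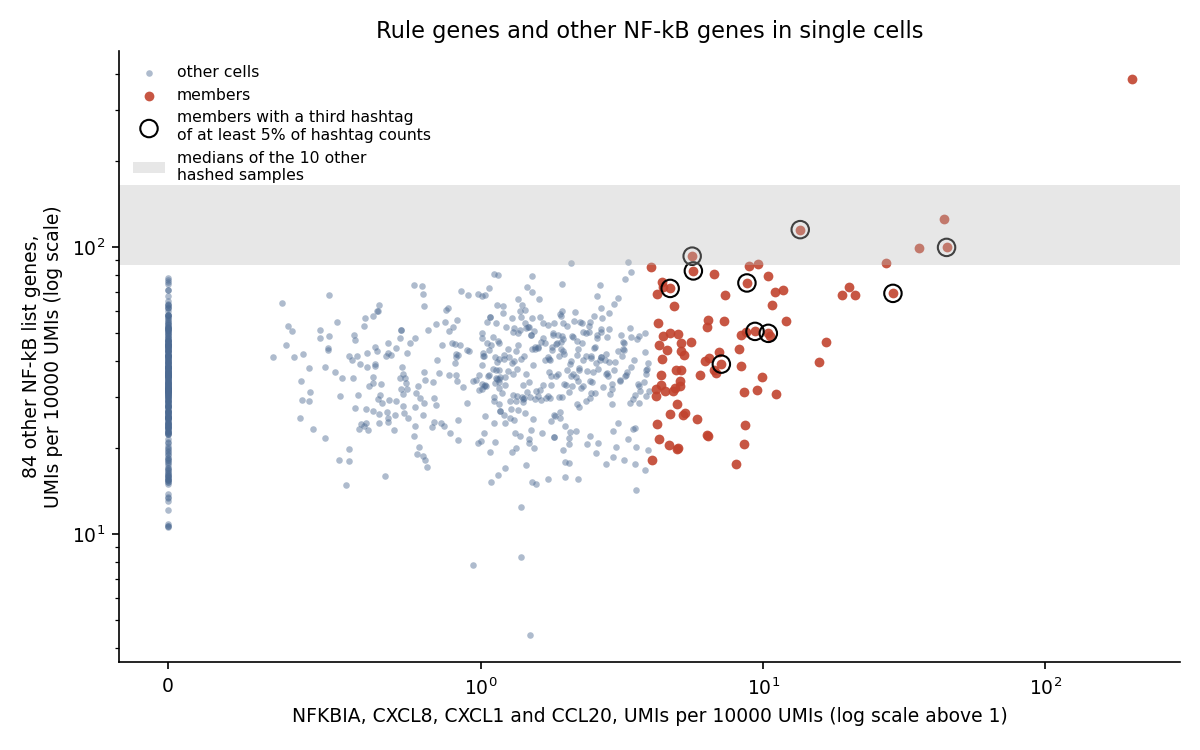
Each of the 892 cells by the score of the 4 rule genes (horizontal) and the summed level of 84 other NF-kB genes (vertical), both in UMIs per 10000 UMIs on log scales, with the 10 members with an extra hashtag of at least 5% circled. The grey band spans the medians of the 10 other hashed samples, 86.8 to 165, which 8 members and 2 other cells reached.

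The members were set beside the 10 other hashed samples, which hold 2036 cells and whose treatments are likewise not labelled. The 5 samples were picked for their low NF-kB levels, so this is a description without test. The NF-kB list was at 53.9 in members, 37.5 in other cells and 87.9 to 160 in the 10 samples. SOD2 at 3.51 and ICAM1 at 1.59 stayed below the lowest of these samples, 11.4 and 2.90. Of the 14 called NF-kB genes, 11 were below the range of the 10 samples and GADD45A was above it, beside 7.5% and 19.7% of all genes tested. Of the 62 higher genes, 55 had a median over the 10 samples above the level in other cells, which held for 25.9% of all genes tested. All 15 lower genes had a median below it, which held for 74.1% of all genes. BMP4 was at 0.757 in members and at 0.0137 to 0.819 in the 10 samples. Above the highest of the 10 samples were 11 of the 62 genes (17.7%), a share no larger than the 19.7% of all genes tested.

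Quality and identity of the cells were compared over the 5 hashed samples. The median UMIs per cell differed by -457 ± 1880 between members and others (SD, n = 5; exact two-sided sign-flip permutation test, p = 0.688) and the mitochondrial share by 0.17 ± 1.24 percentage points (exact p = 0.813). The smallest p that 5 samples allow is 0.0625. An extra hashtag of at least 5% was seen in 10 of 89 members (11.2%) and in 23 of 803 other cells (2.86%). These were 4 of 26, 0 of 13, 0 of 11, 4 of 13 and 2 of 26 members of the 5 samples, and the mean difference of 8.58 percentage points had an exact permutation p of 0.25. The share was 0% to 6.99% in the 10 other hashed samples. Most markers of other cell types had no count in members: CD69 was the only one of 15 T or NK markers with a count, and 7 of 14 myeloid, 5 of 7 B cell, 8 of 10 fibroblast, 5 of 8 endothelial and 6 of 6 erythroid markers had none. The summed T or NK list was at 0 to 0.0848 UMIs per 10000 in the members of the 5 samples and 0 to 0.0134 in other cells, and the myeloid list, mostly CD68 and LYZ, at 0.278 to 0.662 and 0.386 to 0.661. The endothelial list was at 0.451 to 0.835 in members and 0.434 to 0.589 in other cells, nearly all of it EGFL7, at 0.607 and 0.485 (edgeR adjusted p = 0.913), while PECAM1 was at 0.0088 and 0.0375. The part of such cells in the results was not tested. KRT8 and KRT18, keratins of simple epithelia, were seen in every member.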

How the data were processed

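One pool of cells gave 2 libraries, for transcripts (10x 3′ chemistry) and for hashtags, whose deposited raw UMI counts share a table of 5269 barcodes with 36601 genes and 10 hashtags. Cell Ranger is given as version 5.0.1 per the file headers and as 2.1.1, with GRCh38, per the submitters' processing notes, which was not resolved. Cells were kept with at least 1000 genes, 5000 UMIs and at most 20% mitochondrial UMIs (3269 cells). A cell went to its top 2 hashtags if the second had at least 10 counts and 3 times the next. No doublet caller was run beyond the hashtag rule, which misses pairs of cells with the same tags, and no cell type lacking the genes was at hand to gauge free RNA.

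Counts were summed per hashed sample and class, giving 10 sums of which members hold 1.14e+06 and other cells 1.04e+07 UMIs in all. Genes with at least 50 counts over the 892 cells were tested with edgeR 4.0.16 (TMM, glmQLFit, hashed sample as block), with Benjamini-Hochberg adjustment over all genes tested and a threshold of 0.05. Standard errors were derived from the F statistic. Hashed samples may share tumours, so p-values speak for these samples only. The fit shares its estimate of spread across genes. A standard error can therefore be smaller than the spread of steps between samples, as for CXCL8 and HSPA1A. A gene high in members of 1 sample alone, such as CXCL10, could still be called. Alternatives used DESeq2 1.42.0, other scalings, filters and member rules, and each sample left out. Levels are counts per 10000 UMIs. Members and gene lists were chosen with earlier results of these data known. Genes were named by rule: the 15 highest and 10 lowest log2 fold changes among called genes with 1 direction in all 5 samples, called genes of the lists, and up to 4 list genes of the highest level.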

Additional observations from a re-analysis of the deposited data

Results flagged for a closer look

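In 48 sets of 5 values (genes and quality measures of members or of other cells), 6 held a value far from the other 4, and chance gives about 1 in 20. Among members, CXCL10 was at 4.69 UMIs per 10000 in HTO2+HTO5 and at most 0.346 elsewhere, and IDO1 was at 2.04 there and at most 0.0693 elsewhere. GADD45A was at 4.07 in members of HTO4+HTO10, above 1.41 in the next sample. KRT7 was at 7.62 in members of HTO4+HTO7, above 4.76. In other cells, CCL20 was at 0.147 in HTO3+HTO7, above 0.0663, and IDO1 was at 0.167 in HTO4+HTO10, above 0.0670.

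Among barcodes of the 5 hashed samples that the filters had removed, 84 of 519 (16.2%) had a score at or above that of the lowest member, beside 89 of 892 kept cells (9.98%). The removed barcodes had a median of 4318 UMIs and 27.3% mitochondrial UMIs, beside 11912 and 13.3% in kept cells.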

How the results depend on the processing

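The counts of higher (62) and lower (15) genes moved by over 1.5 times under many settings. They were 30 and 2 with DESeq2, 36 and 3 with filterByExpr (5811 genes tested), 25 and 4 with no replicate block, 30 and 2 for the highest 20% of cells, 34 and 2 with the score from cells thinned to 5000 UMIs, and 26 and 3 with the second hashtag at least 10 times the next. Only the count of lower genes moved for the highest 5% (35), for the highest 10% within each hashed sample (7) and with no filter on low counts (37). Leaving out each hashed sample gave 34 to 75 higher and 2 to 13 lower genes. Settings chosen after seeing the data gave 33 and 5 without the 9 highest-scoring members, 23 and 5 without cells with an extra hashtag of at least 5%, and 17 and 4 with counts capped at 3. The cause of these moves was not tested.

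The median share of hashtag counts held by the extra hashtag differed by 0.0233 percentage points between members and others, as a mean over the 5 samples. This is another measure than the 8.58 percentage points above, which compare shares of cells with an extra hashtag of at least 5%. The difference in median share turned to -0.0082 with thinned scores and -0.0534 with the stricter hashtag ratio. It was -0.00842 without the 9 highest-scoring members and -0.0553 without extra-hashtag cells, and ran from -0.0287 to 0.0852 with 1 sample left out. The difference in UMIs (-457) was 34.0 with members chosen within each sample and -1024 to 252 with 1 left out. The mitochondrial difference (0.174) was -0.24 by NFKBIA alone, -0.732 with a limit of 15% and -0.148 without the 9 highest-scoring members, and -0.325 to 0.515 with 1 left out. The mitochondrial difference was 1.1 for the highest 5% and 1.12 by the 3 chemokines, where the UMI difference was -1680 and -1674. The difference in median extra hashtag share reached 0.154 by NFKBIA alone and 0.183 with the 15% limit. With 4 or 5 samples no setting could have passed 0.05. The NF-kB list level of members was 65.2 for the highest 5%.

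Of 54 named genes under up to 21 settings, 668 of 1121 values kept their call, 440 lost it and 13 reversed. By the 3 chemokines, CXCL10 was at -0.91, CXCL11 at -0.33, GBP4 at -0.67, IDO1 at -1.30, IFIT2 at -0.074, IRF1 at -0.027, KRT19 at 0.013 and TSPAN8 at 0.44. With the stricter hashtag ratio CXCL10 was at -0.10 and GBP4 at -0.70, and without extra-hashtag cells they were at -0.37 and -0.61. IDO1 was at -1.25 without HTO2+HTO5 and at up to 3.56 with another sample left out. Members number 11 to 26 per hashed sample, which limits genes with few counts.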

Other observations

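Cells picked by NFKBIA alone and by the 3 chemokines gave partly separate gene sets, which the text above has not described. NFKBIA alone gave 39 higher genes outside the rule and the chemokines gave 57, of which 20 were in both. TNFAIP3 rose by 3.39 ± 0.33 by NFKBIA and by 2.33 ± 0.41 by the chemokines, and BIRC3 by 1.52 ± 0.16 and 0.77 ± 0.18 on the log2 scale (edgeR adjusted p = 7.56e-03 or lower for each). IRF1 was at 1.14 ± 0.17 by NFKBIA and at -0.03 ± 0.18 by the chemokines, and KRT7 at -0.72 ± 0.14 and -0.15 ± 0.10. HSPA1A was at 1.08 ± 0.18 and 1.77 ± 0.23. The choices share 25 cells and most of the comparison cells, and no difference between them was tested.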
